A study of Mus musculus with 9 samples.

Results

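Transcripts of the histone methyltransferase gene Dot1l and of 9 genes for the elongation proteins that work with it were followed in mouse embryonic lung. The 10 genes were taken by symbol from the deposited tables of 55286 genes, and all 10 were found and passed the filter on low counts, as did 15158 genes in all. RNA came from 3 groups of 3 libraries each. Wild-type lungs of stage E11.5, an age of early airway branching, were grown as explants for 72 h with EPZ5676 (the EPZ5676 group) or in the control condition (the control group). The E11.5 group held lungs of that stage before culture. EPZ5676, also known as pinometostat, blocks the catalytic site of the DOT1L protein; its dose and the control medium are not stated in the labels. The libraries are labelled as lung with no sorting step, and no label ties a replicate to its own embryo or culture. The p-values therefore set group differences against the scatter between these libraries, and some of that scatter may be technical.

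DOT1L is the mammalian enzyme that methylates lysine H3K79 in the body of the nucleosome, a mark found over transcribed genes. It is held at chromatin in complexes with AF10 or AF17 (encoded by Mllt10 and Mllt6) and with AF9 or ENL (encoded by Mllt3 and Mllt1), whose YEATS domains bind acylated lysines of histone H3. AF9 and ENL can instead bind the scaffold proteins of the AFF family (Aff1, Aff3 and Aff4), which join them to the ELL elongation factors (Ell and Ell2) and to the kinase P-TEFb in the super elongation complex that releases paused RNA polymerase II. In human leukaemia several of these genes are fusion partners of the methyltransferase gene KMT2A, and DOT1L inhibitors were developed for that disease.

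In GRCm38 coordinates from GENCODE M21, Dot1l lies on the forward strand of chromosome 10, from 80755206 to 80795461. Of the AF9 pair, Mllt3 lies on the reverse strand of chromosome 4 (87769925 to 88033364) and Mllt1 on the reverse strand of chromosome 17 (56892611 to 56935415). Of the AF10 pair, Mllt10 lies on chromosome 2 (18055237 to 18212388) and Mllt6 on chromosome 11 (97663414 to 97685463). The AFF genes lie on chromosome 5 (Aff1, 103692374 to 103855322), on the reverse strand of chromosome 1 (Aff3, 38177326 to 38664955) and on chromosome 11 (Aff4, 53350833 to 53421830). Ell lies on chromosome 8 (70539457 to 70592858) and Ell2 on chromosome 13 (75706757 to 75772364). All 10 are protein-coding. The exons of Mllt10 share 12.7% of their bases with Dnajc1 on the opposite strand, and those of Ell2 share 2.28% with other annotated genes. Whether reads were counted by strand is not stated in the labels, so reads there may belong to either gene. Mllt10 had counts that were not whole in all 9 libraries and Aff4 in 6, so the authors' software divided some of their reads with other genes.

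RefSeq's promoter table (GRCm38.p6) held an entry for all 10 members. The bases before the start site are shown for Dot1l, as the gene of the drug's target, and for the 2 starts of Mllt3 in that table. Mllt3 was chosen because it differed between cultured and E11.5 lung and its estimated transcript length varied most among the members, as described further on. Each window is the 250 bases before the start, written 5′ to 3′ on the gene's strand, with capitals marking the GC box GGGCGG or its reverse complement CCGCCC. The windows are chr10:80754953-80755202 on the forward strand for Dot1l, chr4:88033408-88033657 on the reverse strand for the upstream start of Mllt3, and chr4:87806324-87806573 on the reverse strand for its internal start. An annotated exon that is not one of Mllt3 covers 43 bases of the upstream Mllt3 window.
Dot1l: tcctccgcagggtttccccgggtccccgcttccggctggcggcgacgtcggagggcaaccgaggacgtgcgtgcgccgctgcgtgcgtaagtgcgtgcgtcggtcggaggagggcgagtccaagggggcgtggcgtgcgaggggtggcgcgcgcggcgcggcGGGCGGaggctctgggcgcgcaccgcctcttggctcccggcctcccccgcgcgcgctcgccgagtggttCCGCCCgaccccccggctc
Mllt3 upstream start: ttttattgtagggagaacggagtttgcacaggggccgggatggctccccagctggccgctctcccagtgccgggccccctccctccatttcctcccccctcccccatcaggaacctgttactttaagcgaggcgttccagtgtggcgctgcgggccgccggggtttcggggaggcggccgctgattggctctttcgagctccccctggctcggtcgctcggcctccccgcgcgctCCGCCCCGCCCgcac
Mllt3 internal start: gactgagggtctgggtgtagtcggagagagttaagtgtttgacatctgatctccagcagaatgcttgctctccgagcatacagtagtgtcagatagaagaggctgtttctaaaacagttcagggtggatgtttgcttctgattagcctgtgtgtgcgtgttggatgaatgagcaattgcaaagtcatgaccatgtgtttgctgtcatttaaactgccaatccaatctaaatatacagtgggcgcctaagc
The Dot1l window held 44 CG dinucleotides and 2 GC boxes. The upstream Mllt3 window held 23 CG dinucleotides and 2 GC boxes, which overlap, and the internal window held 4 CG dinucleotides and 0 GC boxes. Over 32851 promoter windows of the same length, the median was 6 CG dinucleotides and 32.7% held a GC box on either strand. These matches describe the letters only.

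Each library held between 6509450 and 9861370 counts after rounding. Defining genes of lung epithelium (Nkx2-1, Epcam, Cdh1, Sox9, Sftpc) and lung mesenchyme (Tbx4, Tbx5, Foxf1, Fgf10, Pdgfra) were above 0 in every library. Control 1 stood apart from the other libraries in RNA of another organ: the summed level of 5 liver genes was 190 TPM there, against 0.67 to 1.58 TPM with EPZ5676, 0.75 and 1.67 TPM in the other controls and 3.69 to 20.8 TPM in E11.5 lung. Heart muscle genes (5) were also highest there, at 187 TPM, against 60.9 to 77.7 TPM with EPZ5676, 38.5 and 55.8 TPM in the other controls and 40.5 to 89.4 TPM in E11.5 lung. Xist, transcribed in female cells, was high in 1 of 3 EPZ5676 libraries (210 TPM in EPZ5676 2) and in 2 of 3 control libraries (281 and 278 TPM in Control 1 and Control 2), and otherwise below 1 TPM in culture. E11.5 2 and E11.5 3 held both Xist and the Y-linked Ddx3y, and the part of this uneven make-up in the results was not tested. In bulk tissue, fewer cells of a type and less RNA per cell cannot be told apart.

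All 10 members were expressed, with 95 to 3025.06 counts per library and member, and by mean TPM they ranged between the 23.1 percentile of tested genes (Aff1 in E11.5 lung) and the 81.9 percentile (Aff4 in controls). On the TPM scale, which is per transcript length and so allows genes to be ranked, Aff4 was the most abundant in culture and Aff1 the least abundant in every group. With EPZ5676 the order of mean TPM was Aff4 (51.3), Mllt10 (40.7), Mllt1 (38.4), Mllt3 (28.2), Mllt6 (22.2), Dot1l (20.8), Aff3 (12.8), Ell (11.9), Ell2 (8.92) and Aff1 (5.74). The library ranges of neighbours in that order overlapped except between Mllt1 and Mllt3, between Dot1l and Aff3, and between Ell2 and Aff1. In control explants the order was the same save that Mllt1 stood before Mllt10 and Dot1l before Mllt6, both pairs with overlapping ranges. In E11.5 lung Mllt1, Aff4, Mllt10 and Mllt3 lay together, at mean levels of 45.6, 45.4, 43.6 and 43.3 TPM, and the ranges of Mllt3 and of Dot1l, the next below at 22.5 TPM, did not overlap. By mean TPM, the genes of the DOT1L partners AF10, ENL and AF9 were above that of the enzyme in all 3 groups. In controls the library ranges of Mllt3 and Dot1l overlapped. The gene of the partner AF17, Mllt6, was above Dot1l with EPZ5676 but below it in controls (21.2 against 24.0 TPM) and in E11.5 lung (17.2 against 22.5 TPM). Among 28 histone lysine methyltransferase genes, Dot1l was number 20 by mean TPM with EPZ5676, number 19 in controls and number 20 in E11.5 lung, below the list's medians of 33.5, 34.9 and 38.1 TPM.

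**Figure D1:**
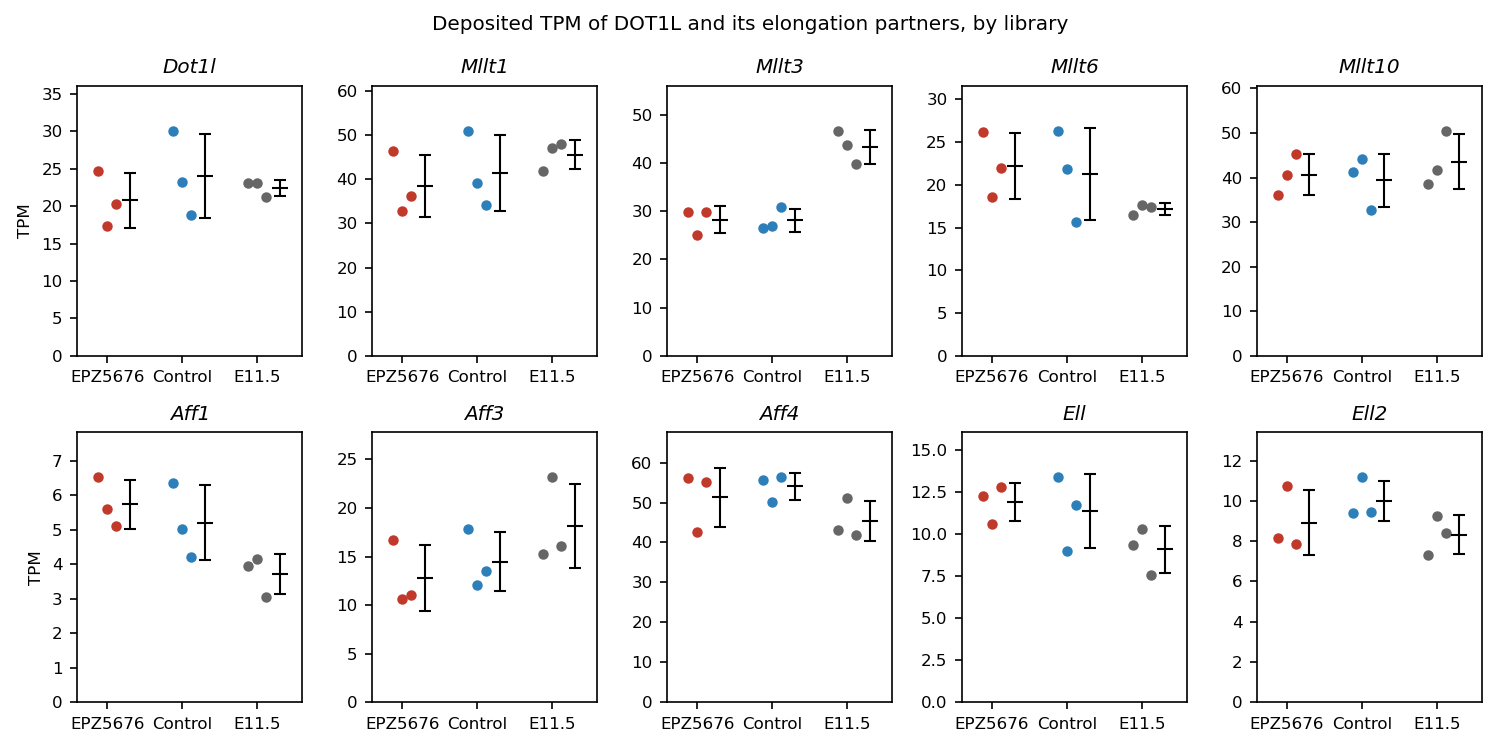
Deposited TPM (vertical axes, from 0, with a scale per gene) of the 10 members in EPZ5676, control and E11.5 libraries, 3 points per group, with the mean and SD beside them. The E11.5 libraries of Mllt3 (39.7 to 46.6 TPM) lie above all cultured libraries (24.96 to 30.8 TPM), while the EPZ5676 and control points overlap in every panel.

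The comparison of EPZ5676 with control explants asked whether blocking the enzyme was accompanied by a change in the transcripts of its own complex. None of the 10 members passed, with or without Control 1. Dot1l lay slightly below control, ENL's gene Mllt1 and Aff3 likewise, and the other members lay within 1.11-fold of control. The libraries of the 2 groups overlapped for all 10 members on the log2 CPM scale, where 10.2% of all tested genes did not overlap (5.79% above and 4.45% below). In edgeR's quasi-likelihood test 0 of 10 members passed an adjusted p of 0.05 in either direction, and 0 did at an unadjusted p under 0.05. The background was 0% of 15158 genes at the adjusted threshold (0 higher and 0 lower) and 6.94% at the unadjusted one. DESeq2 also called 0 members, with 0.549% of genes called.

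Dot1l was at 24.7, 17.4 and 20.3 TPM in EPZ5676 1, 2 and 3, against 30.0, 23.2 and 18.8 TPM in Control 1, 2 and 3. The highest library was Control 1 and the lowest EPZ5676 2, and the groups overlapped. The count-based fold was 0.87 (95% interval 0.75 to 1.01, log2 fold change -0.20 ± 0.10 SE, n = 3 per group, edgeR adjusted p = 0.743). With EPZ5676 the mean was 20.8 ± 3.7 TPM and in controls 24.0 ± 5.6 TPM (SD, n = 3 each).

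Among the proteins that bind DOT1L directly, the AF9 gene Mllt3 was at 29.9, 24.96 and 29.8 TPM with EPZ5676 and at 26.4, 27.0 and 30.8 TPM in controls. Its fold was 1.07 (95% interval 0.91 to 1.25). Its paralog Mllt1, which encodes ENL, was at 46.3, 32.8 and 36.2 TPM with EPZ5676 and at 50.9, 39.2 and 34.2 TPM in controls, a fold of 0.90 (0.75 to 1.07). In both groups of Mllt1 replicate 1 was the highest, and the groups overlapped. The AF10 gene Mllt10 was at 36.2, 40.5 and 45.4 TPM against 41.2, 44.1 and 32.7 TPM. Its fold was 1.01 (0.90 to 1.13), the narrowest interval of the members in the fit to counts. Mllt6, which encodes AF17, was at 26.2, 18.6 and 21.9 TPM with EPZ5676 and 26.3, 21.8 and 15.6 TPM in controls, a fold of 1.04 (0.87 to 1.24).

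The members of the super elongation complex did not pass either. Aff4, the scaffold of the main form of the complex, was at 56.0, 42.7 and 55.1 TPM with EPZ5676 and 55.6, 50.2 and 56.3 TPM in controls (fold 0.94, 95% interval 0.81 to 1.08). Aff1, a related scaffold also called AF4, was at 6.51, 5.59 and 5.11 TPM against 6.36, 5.02 and 4.21 TPM (fold 1.11, 0.90 to 1.36). Aff3 was at 16.7, 10.7 and 11.1 TPM against 17.9, 12.03 and 13.5 TPM (fold 0.85, 0.63 to 1.14) and had the widest interval of the 10. The elongation factor genes Ell and Ell2 had folds of 0.99 (0.78 to 1.26) and 0.98 (0.76 to 1.26). A change that misses the threshold does not show that the groups were alike. Over the 10 members the outermost bounds were log2 fold changes of -0.67 and 0.45, and the median log2 fold change was -0.02, beside -0.0038 over all genes tested.

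**Figure D2:**
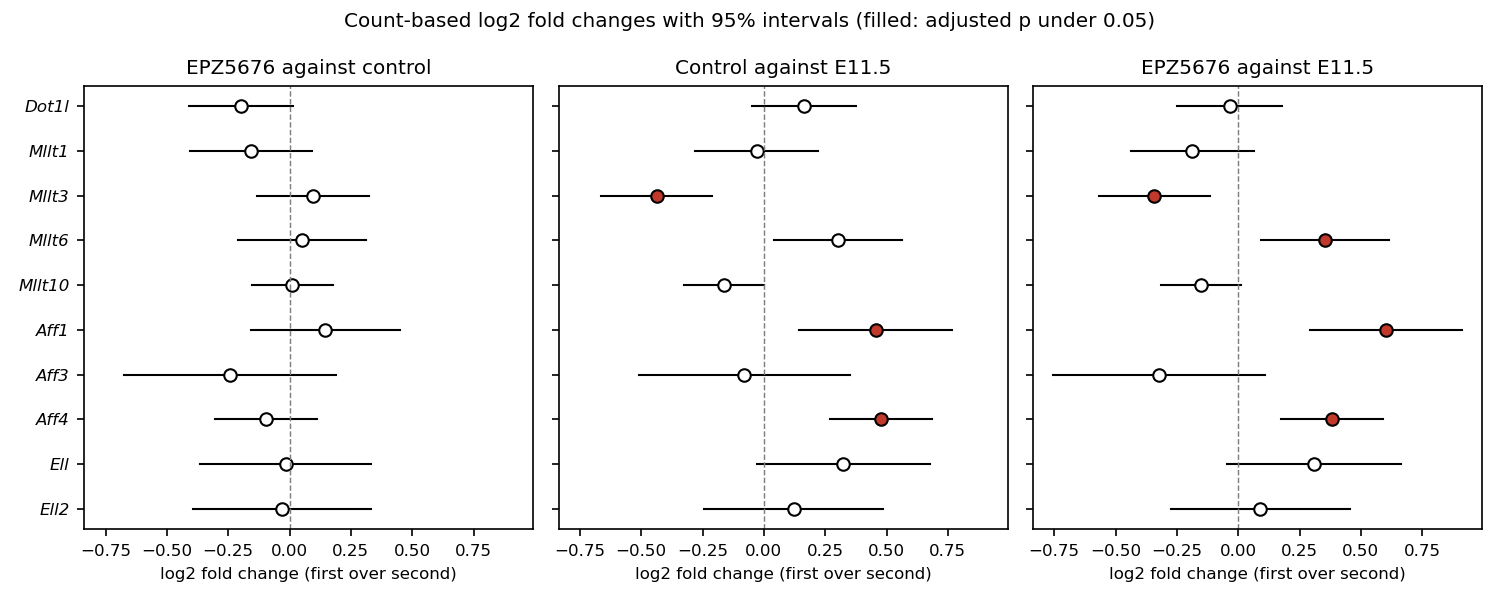
Count-based log2 fold changes (points) with 95% intervals (lines) of the 10 members in the 3 comparisons, with filled points where the edgeR adjusted p was under 0.05. No point is filled for EPZ5676 against control, 3 are for control against E11.5 (Mllt3, Aff1, Aff4) and 4 for EPZ5676 against E11.5 (Mllt3, Mllt6, Aff1, Aff4).

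The comparisons of the cultured explants with E11.5 lung asked how the same genes differed after 72 h of culture. The 3 groups hold no uncultured lung of a later stage. Effects of culture and of 72 h of further development therefore cannot be told apart. The AF9 gene Mllt3 fell in both cultured groups, and the scaffold genes Aff1 and Aff4 rose in both by the count-based test. The AF17 gene Mllt6 rose with EPZ5676. Dot1l, Mllt1, Mllt10, Aff3, Ell and Ell2 did not pass in either. These 2 comparisons share the E11.5 libraries, so agreement between them is not independent. Of the 10 members, 2 were higher and 1 lower in control explants, where 21.1% of all tested genes were called higher and 16.6% lower. In EPZ5676 explants 3 were higher and 1 lower, where the background was 22.1% higher and 17.9% lower. In either direction 40.0% of genes were called with EPZ5676 and 37.7% in controls, so the members' counts of 4 and 3 out of 10 were near the background. At an unadjusted p under 0.05, 4 members passed in each comparison, beside 48.9% of genes with EPZ5676 and 47.1% in controls. DESeq2 called 4 and 3 members, beside 39.5% and 37.4% of genes.

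On the log2 CPM scale 6 members had libraries that did not overlap with those of E11.5 lung in each comparison. With EPZ5676 these were Mllt6, Aff1, Aff4 and Ell above and Mllt3 and Mllt10 below, where 29.9% of all genes lay above, 27.4% below and 57.3% on either side. In controls they were Dot1l, Mllt6, Aff1 and Aff4 above and Mllt3 and Mllt10 below, where 26.5% lay above, 24.9% below and 51.4% on either side.

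Mllt3 was at 29.9, 24.96 and 29.8 TPM with EPZ5676 and 26.4, 27.0 and 30.8 TPM in controls, against 46.6, 43.7 and 39.7 TPM in E11.5 lung. All 6 cultured libraries lay below all 3 E11.5 libraries. The count-based log2 fold change was -0.34 ± 0.10 with EPZ5676 (edgeR adjusted p = 0.0220) and -0.44 ± 0.10 in controls (edgeR adjusted p = 0.00734). With EPZ5676 the call was lost without E11.5 2 (log2 fold change -0.32, adjusted p = 0.0745), E11.5 3 (-0.29, 0.0913), EPZ5676 2 (-0.31, 0.0705) or EPZ5676 3 (-0.33, 0.0688). The control call held with each of the 9 libraries left out.

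Aff4 was at 56.0, 42.7 and 55.1 TPM with EPZ5676, 55.6, 50.2 and 56.3 TPM in controls and 43.2, 51.2 and 41.8 TPM in E11.5 lung. On this scale the groups overlapped, while on the log2 CPM scale all 6 cultured libraries (8.16 to 8.46) lay above all 3 E11.5 libraries (7.75 to 7.88). The count-based log2 fold change was 0.38 ± 0.09 with EPZ5676 (edgeR adjusted p = 0.00858) and 0.48 ± 0.09 in controls (edgeR adjusted p = 0.00293). It was 0.17 and 0.25 by limma on log2(TPM + 1), with adjusted p-values of 0.400 and 0.212, so neither passed on that scale. Without E11.5 2 the EPZ5676 call was also lost by a small margin (0.34, edgeR adjusted p = 0.0504).

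Aff1 was at 6.51, 5.59 and 5.11 TPM with EPZ5676, 6.36, 5.02 and 4.21 TPM in controls and 3.95, 4.16 and 3.05 TPM in E11.5 lung. Every cultured library lay above every E11.5 library, though Control 3 and E11.5 2 were close. The log2 fold change was 0.60 ± 0.14 with EPZ5676 (edgeR adjusted p = 0.00643) and 0.46 ± 0.14 in controls (edgeR adjusted p = 0.0264). The control call was lost without E11.5 3 (0.33, adjusted p = 0.115) or Control 1 (0.40, adjusted p = 0.0740), and both calls were lost by limma on log2(TPM + 1), with values of 0.52 (adjusted p = 0.0961) with EPZ5676 and 0.39 (adjusted p = 0.211) in controls.

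Mllt6 was at 26.2, 18.6 and 21.9 TPM with EPZ5676, 26.3, 21.8 and 15.6 TPM in controls and 16.4, 17.7 and 17.4 TPM in E11.5 lung. The EPZ5676 libraries all lay above the E11.5 libraries, while Control 3 lay below them in TPM. The log2 fold change was 0.35 ± 0.12 with EPZ5676 (edgeR adjusted p = 0.0354) and 0.30 ± 0.12 in controls (edgeR adjusted p = 0.0673), so the values differed little although a single comparison passed, and the difference between them, that of EPZ5676 from control, was 0.05 ± 0.12. The EPZ5676 call was lost with any of 6 libraries left out, with values of 0.31, 0.36 and 0.36 without E11.5 1, 2 and 3 (adjusted p = 0.116, 0.0888 and 0.0846), 0.34 without Control 2 (0.0516), and 0.25 and 0.35 without EPZ5676 1 and 3 (0.129 and 0.0802). It was also lost by limma on log2(TPM + 1) (0.34, adjusted p = 0.226). In controls Mllt6 passed without Control 3 (0.40, adjusted p = 0.0211), EPZ5676 1 (0.31, 0.0457) or EPZ5676 2 (0.31, 0.0490).

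Dot1l differed little from fresh tissue in its mean level, which was 20.8 ± 3.7 TPM with EPZ5676 and 24.0 ± 5.6 TPM in controls, against 22.5 ± 1.1 TPM in E11.5 lung (SD, n = 3 each). The E11.5 libraries were close together, at 23.1, 23.1 and 21.2 TPM, and the cultured ones spread on both sides of them. The fold was 0.98 with EPZ5676 (95% interval 0.84 to 1.13, edgeR adjusted p = 0.800) and 1.12 in controls (0.97 to 1.30, edgeR adjusted p = 0.205). Mllt1 had folds of 0.88 (0.74 to 1.04) and 0.98 (0.82 to 1.16), and Mllt10 of 0.90 (0.80 to 1.01) and 0.89 (0.80 to 1.00), with EPZ5676 and in controls in that order. Ell, at 12.3, 10.6 and 12.8 TPM with EPZ5676, 13.4, 9.01 and 11.8 TPM in controls and 9.40, 10.4 and 7.58 TPM in E11.5 lung, had folds of 1.24 (0.97 to 1.58) and 1.25 (0.98 to 1.60). Ell2, at 7.86 to 10.8, 9.42 to 11.2 and 7.32 to 9.26 TPM in the same 3 groups, had folds of 1.06 (0.83 to 1.37) and 1.09 (0.84 to 1.40). Aff3, at 10.7 to 16.7, 12.03 to 17.9 and 15.2 to 23.1 TPM, had folds of 0.80 (0.59 to 1.08) and 0.95 (0.70 to 1.27). Without EPZ5676 1, the library highest in its group for both, Mllt1 (log2 fold change -0.30, adjusted p = 0.0487) and Aff3 (-0.55, adjusted p = 0.0336) passed as lower with EPZ5676 than in E11.5 lung.

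Summed levels of several cell type marker lists also differed between cultured and E11.5 lung, while those of others overlapped. The summed level of 5 erythroid genes was 59.2 to 910 TPM with EPZ5676 and 81.8 to 916 TPM in controls, against 13800 to 16421 TPM in E11.5 lung. Endothelial genes (4) summed to 12.4 to 33.2, 6.49 to 46.3 and 120 to 124 TPM in the same groups, and lung epithelial genes (5) to 970 to 1816, 576 to 1381 and 158 to 181 TPM. Macrophage genes (4) summed to 113 to 170, 99.5 to 143 and 14.1 to 22.0 TPM. Lung mesenchyme genes (5) summed to 193 to 270 TPM with EPZ5676, below the 288 to 355 TPM of E11.5 lung, while the controls, at 268 to 329 TPM, overlapped with it. The heart muscle, cartilage and neural lists overlapped between E11.5 lung and both cultured groups. No gene of the endothelial, epithelial, mesenchymal and macrophage lists was at 0 in any library. Their part in the changes of Mllt3, Aff1, Aff4 and Mllt6 was not tested.

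Ratios between paralogs, taken within a library from TPM, describe the make-up of the set and are given without a test. AF9 and ENL bind the same partners, and the ratio of Mllt3 to Mllt1 was 0.65, 0.76 and 0.82 in EPZ5676 1, 2 and 3 and 0.52, 0.69 and 0.90 in the controls, against 1.12, 0.93 and 0.83 in E11.5 lung. The 3 EPZ5676 values lay below the 3 E11.5 values, though EPZ5676 3 and E11.5 3 were nearly equal, while Control 3 lay among the E11.5 values. The ratio of Mllt10 to Mllt6, the AF10 and AF17 genes, was 1.38, 2.18 and 2.07 with EPZ5676 and 1.57, 2.02 and 2.10 in controls, all below the 2.34, 2.36 and 2.90 of E11.5 lung. The ratio of Aff3 to Aff4 was 0.30, 0.25 and 0.20 with EPZ5676 and 0.32, 0.24 and 0.24 in controls, against 0.35, 0.45 and 0.38 in E11.5 lung, again without overlap. The ratio of Aff1 to Aff4 was 0.093 to 0.13 with EPZ5676, 0.075 to 0.11 in controls and 0.073 to 0.091 in E11.5 lung, and that of Ell2 to Ell was 0.61 to 1.01, 0.70 to 1.24 and 0.78 to 1.11. For these last 2 ratios the control and E11.5 ranges overlapped, and EPZ5676 lay above E11.5 lung for the first of them. The share of other gene pairs whose ratios separate from E11.5 lung was not determined. For single genes on the log2 CPM scale, 57.3% did not overlap with E11.5 lung with EPZ5676 and 51.4% in controls.

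Counts and TPM of a gene can move apart because the authors' software divides reads among isoforms of unequal length. The mean transcript length that the 2 deposited values imply was therefore recovered for each library, with the scale set on 248 genes that have a single annotated transcript of at least 3000 bases. The ratio of implied to annotated length of those genes had a lowest 5th percentile of 0.983 and a highest 95th percentile of 1.02 over the libraries. Among the members Mllt3 varied most, with 1.58-fold between its highest and lowest library, followed by Aff4 with 1.49-fold. The implied length of Mllt3 was 4327, 4120 and 3667 bases in EPZ5676 1, 2 and 3, 4173, 4008 and 3042 bases in the controls and 2730, 3500 and 3943 bases in E11.5 lung. Of its GENCODE M21 transcripts, Mllt3-201, with 6069 bases, begins next to the upstream start shown above. At the internal start begins Mllt3-208, with 794 bases, and within a few bases of it begin Mllt3-202, with 1956 bases, and a form of 422 bases. The libraries of the 3 groups overlapped, so no group had a length of its own. Aff4 implied 8981, 9949 and 8044 bases with EPZ5676, 9200, 8843 and 8345 bases in controls and 8639, 6680 and 8338 bases in E11.5 lung, with E11.5 2 the shortest. Its full-length coding transcript has 10099 bases. Dot1l stayed between 5529 and 6109 bases in all 9 libraries, below the 6808 bases of its transcript Dot1l-201. Ell2 was at 3880 to 4049 bases with EPZ5676 and 3401 to 3731 bases in controls, against 3871 to 4272 bases in E11.5 lung, so the controls alone lay below the rest. The share of all genes that separate in this way in implied length was not determined, and the difference was not tested.

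Fitting the counts with the implied length as an offset, a setting chosen after the data had been seen, kept the direction of all the calls against E11.5 lung. Mllt3 then had log2 fold changes of -0.59 ± 0.14 with EPZ5676 (edgeR adjusted p = 0.00865) and -0.55 ± 0.14 in controls (edgeR adjusted p = 0.0133), larger falls than from counts alone. Aff1 had 0.66 ± 0.16 (adjusted p = 0.00749) and 0.54 ± 0.16 (adjusted p = 0.0219), and Mllt6 passed with EPZ5676 at 0.40 ± 0.13 (adjusted p = 0.0297). Aff4 no longer passed, at 0.21 ± 0.13 with EPZ5676 (adjusted p = 0.252) and 0.33 ± 0.13 in controls (adjusted p = 0.0796). Against control the EPZ5676 values of the 10 members lay between -0.23 and 0.12, and none passed. In that comparison the SE of Mllt10 was 0.14, above the 0.12 of Dot1l and Mllt1, so Mllt10 no longer had the smallest.

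**Figure D3:**
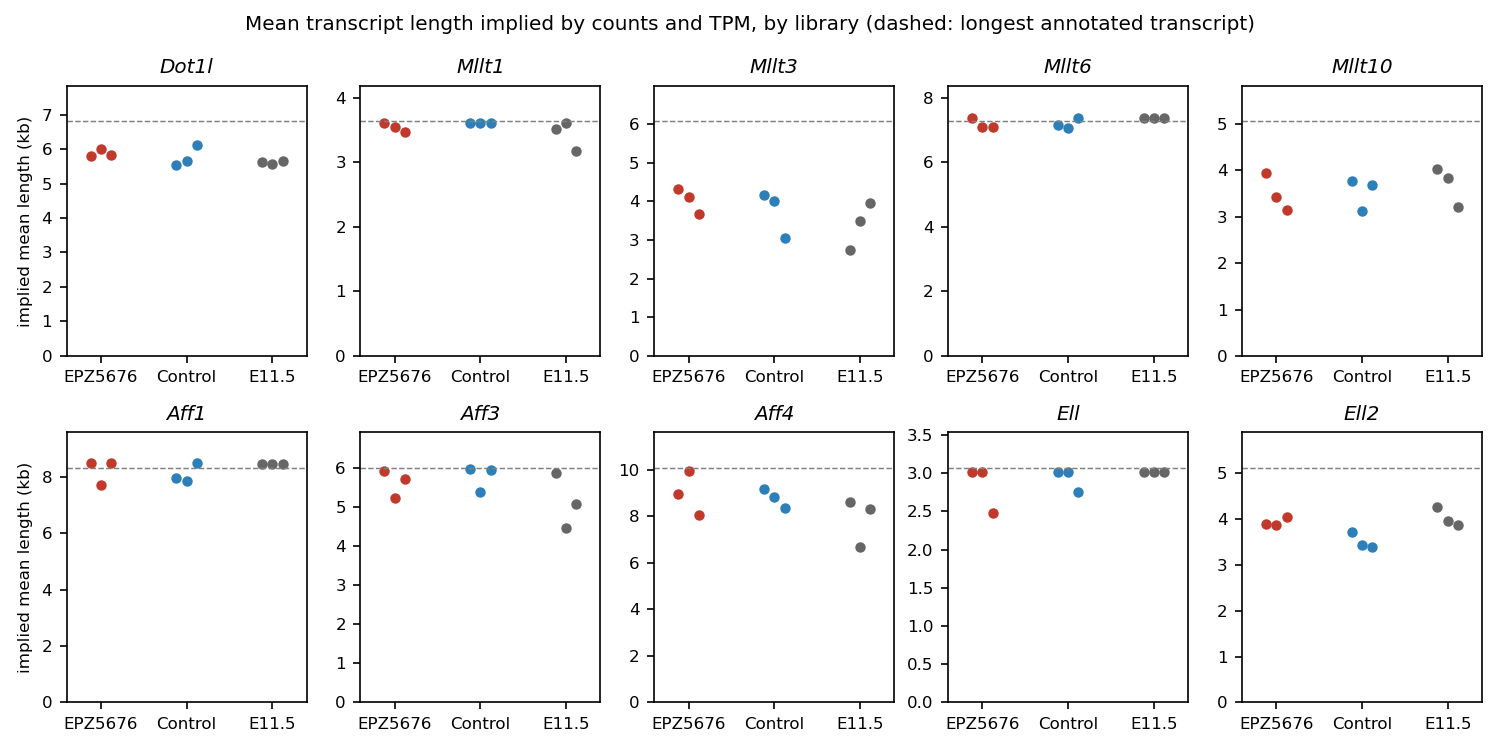
Mean transcript length in kb (vertical axes, from 0) implied by the deposited counts and TPM for the 10 members in each of 9 libraries, with the longest GENCODE M21 transcript as a dashed line. Mllt3 ranges from 2730 to 4327 bases and Aff4 from 6680 to 9949 bases across libraries, while Mllt6 stays between 7056 and 7380 bases.

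The wider machinery around the members was described with 8 lists of 52 genes, of which 51 were tested. For EPZ5676 against control 0 of 51 genes passed, where 0% of all 15158 genes tested did. Of the 51, 22 had a positive and 29 a negative value, and the median log2 fold change was -0.01. The smallest adjusted p was that of Bcor, a corepressor that binds AF9, at 0.512 (log2 fold change -0.30 ± 0.10, edgeR).

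After culture, most genes of these lists that passed were lower than in E11.5 lung. In control explants 20 of 51 were lower (39.2%) and 1 higher (1.96%), beside 16.6% and 21.1% over all genes tested, with a median log2 fold change of -0.21 beside 0.02. In EPZ5676 explants 19 of 51 were lower (37.3%) and 1 higher (1.96%), beside 17.9% and 22.1%, with a median of -0.20. The difference between these lists and the members was not tested. The gene that was higher in both was Hexim1, which encodes the inhibitor that holds P-TEFb on the 7SK RNA. It was at 32.4, 29.5 and 31.6 TPM with EPZ5676, 29.3, 31.2 and 24.96 TPM in controls and 17.8, 20.4 and 19.7 TPM in E11.5 lung (log2 fold change 0.71 ± 0.10, edgeR adjusted p = 3.4e-04, and 0.61 ± 0.10, edgeR adjusted p = 0.00101). Larp7, whose protein keeps the 7SK RNA stable, was lower in both, at 55.3 to 64.1 TPM and 59.6 to 70.9 TPM against 95.2 to 105 TPM.

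Of the PAF1 complex, which travels with the polymerase and is needed for the H2B ubiquitination that stimulates DOT1L, 3 of 6 genes were lower with EPZ5676 and 4 of 6 in controls. The control calls of Paf1 and Ctr9 were lost in several fits with a library left out. Without Control 1, for instance, their edgeR adjusted p-values were 0.0947 and 0.0905. The EPZ5676 call of Ctr9 was lost without E11.5 3, EPZ5676 1 or EPZ5676 2. Its edgeR adjusted p-values there were 0.0713, 0.0676 and 0.0568. Rtf1 was at 37.0 to 42.0 TPM with EPZ5676 and 38.8 to 39.5 TPM in controls, against 55.4 to 63.4 TPM in E11.5 lung. Leo1 had log2 fold changes of -0.40 ± 0.12 with EPZ5676 and -0.48 ± 0.12 in controls. With EPZ5676 its call was lost without E11.5 2 (-0.39, edgeR adjusted p = 0.0774), E11.5 3 (-0.38, 0.0832) or EPZ5676 1 (-0.31, 0.0894) and with the length offset (-0.37, 0.0503). Of 7 genes for H2B ubiquitination and its removal 1 passed in each comparison, the deubiquitinase gene Usp22 (-0.64 ± 0.13 with EPZ5676 and -0.49 ± 0.13 in controls). Of 7 genes for MLL, menin and their partners 3 were lower with EPZ5676 and 4 in controls, led by Psip1, which encodes the chromatin tether LEDGF, at 204 to 216 and 182 to 233 TPM against 304 to 370 TPM. The control calls of Rbbp5 and Wdr5 were lost under several settings, among them without E11.5 2 (edgeR adjusted p = 0.0878 and 0.0725). With EPZ5676 the Wdr5 call was lost without E11.5 2, E11.5 3, EPZ5676 2 or EPZ5676 3. Its edgeR adjusted p-values there were 0.0674, 0.0587, 0.0608 and 0.0606. Ash2l, a core subunit of MLL complexes, had -0.50 ± 0.09 and -0.45 ± 0.09.

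Of 9 further elongation genes 6 were lower in each comparison, among them Supt16, a subunit of the histone chaperone FACT (-0.62 ± 0.12 and -0.62 ± 0.12), and Ice2, of the little elongation complex (-0.51 ± 0.15 and -0.75 ± 0.15). The EPZ5676 call of Ice2 was lost without E11.5 1 (-0.50, edgeR adjusted p = 0.0561), E11.5 3 (-0.47, 0.0794), EPZ5676 1 (-0.39, 0.0814) or EPZ5676 3 (-0.51, 0.0601) and with the length offset (-0.39, 0.0950). Both calls of Ice1, of the same list, were lost under several settings. Without E11.5 2 its edgeR adjusted p was 0.117 with EPZ5676 and 0.146 in controls. Of 5 genes for other YEATS proteins and AF9 binding proteins 3 were lower with EPZ5676 and 2 in controls, led by Yeats4 (-0.54 ± 0.10 and -0.52 ± 0.10) and Yeats2 (-0.37 ± 0.10 and -0.34 ± 0.10). In controls the Yeats2 call was lost without E11.5 2 (-0.35, edgeR adjusted p = 0.0546) or E11.5 3 (-0.33, 0.0657). The EPZ5676 call of Bcor was lost without EPZ5676 3 (-0.29, edgeR adjusted p = 0.0517) and with the length offset (-0.29, 0.0552). Eaf1, whose protein binds ELL, was lower in both (-0.47 ± 0.10 and -0.37 ± 0.10), and its control call was lost without E11.5 2 (-0.29, edgeR adjusted p = 0.0737). Of 6 pausing factor genes Nelfa alone passed, with EPZ5676 (-0.33 ± 0.11, edgeR adjusted p = 0.0385). Its call was lost without E11.5 2 (-0.31, edgeR adjusted p = 0.117), E11.5 3 (-0.32, 0.106), EPZ5676 2 (-0.29, 0.108) or EPZ5676 3 (-0.32, 0.0997) and with the length offset (-0.31, 0.0751). The number of list genes called was 14 to 22 with EPZ5676 and 14 to 21 in controls when each library was left out in turn, lowest without E11.5 3 with EPZ5676 and without E11.5 2 in controls. With the length offset it was 15 and 21.

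**Figure D4:**
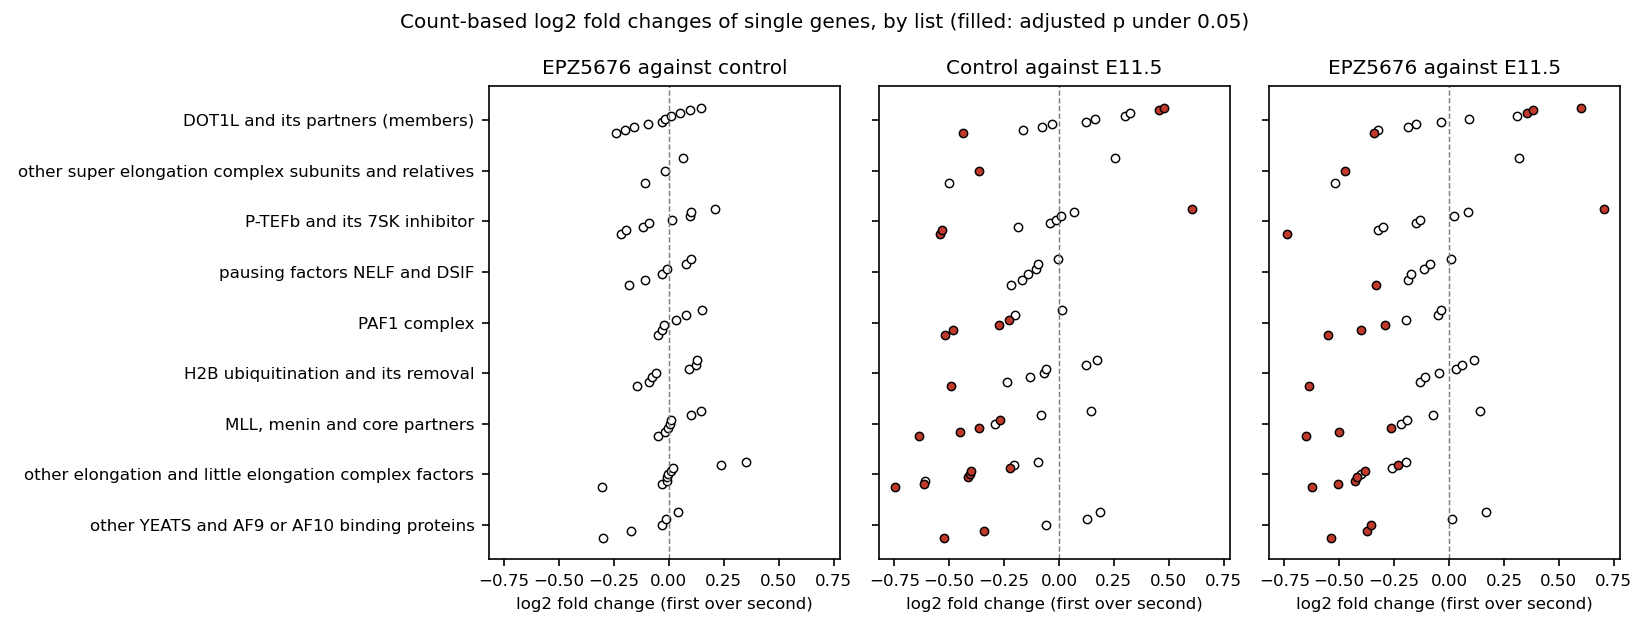
Count-based log2 fold changes of the 10 members and of the 51 tested genes in 8 lists of the elongation machinery (rows), in the 3 comparisons, with filled points where the edgeR adjusted p was under 0.05. Against E11.5 lung the filled points of the lists lie on the negative side (20 of 21 in controls and 19 of 20 with EPZ5676), Hexim1 being the exception, and no point is filled for EPZ5676 against control.

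Across the 9 libraries the members did not move as a block. Likeness was measured as the root mean square difference of log2 CPM profiles, each centred on its own mean. The closest pair was Dot1l and Mllt1, with a difference of 0.11 and both genes were highest in replicate 1 of each cultured group. Mllt3 and Mllt10 were nearest to each other at 0.15, as were Aff1 and Ell at 0.15, and Ell was also nearest to Aff4 (0.16). No gene had its paralog as its nearest member. The paralog differences were 0.20 for Mllt3 and Mllt1, 0.27 for Mllt10 and Mllt6, 0.26 for Ell2 and Ell, 0.18 for Aff1 and Aff4 and 0.38 for Aff3 and Aff4. A nearest value is the smallest a gene has, so its other pairs are farther by definition. The typical difference between members was not determined. Over all tested genes with an established name, those nearest to Dot1l were the chromatin remodeller gene Chd3 (0.040), the histone methyltransferase gene Ehmt2 (0.043) and the G protein gene Gnas (0.046). Ehmt2 was at 94.8, 64.3 and 73.6 TPM with EPZ5676, 109, 81.4 and 77.6 TPM in controls and 86.4, 75.0 and 81.3 TPM in E11.5 lung. Control 1 was the highest library and EPZ5676 2 the lowest, as for Dot1l.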

How the data were processed

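RNA-seq was made from 9 mouse lung libraries in 3 groups of 3. Libraries were made with a Vazyme kit from TRIzol-extracted RNA, per the labels' protocols. RSEM, Bowtie2 and mm10 are named, without roles or versions, per the submitters' processing notes. The authors deposited expected counts per gene, of which 12.5% to 15.3% were not whole, and TPM, which are scaled by length and depth.

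Expected counts were rounded, filtered (filterByExpr, minimum count 10; 15158 genes kept) and scaled by TMM. All 9 libraries entered 1 fit by group in edgeR 4.0.16 (R 4.3.3; robust quasi-likelihood F test, legacy method, two-sided), with 6 residual degrees of freedom, Benjamini-Hochberg adjustment over all genes and a threshold of 0.05. The SE and the 95% interval come from the F statistic. The code was tested on simulated data. Log2 CPM used a prior count of 2. The alternatives were RLE scaling, DESeq2 1.42.0, no filter, a fit to 6 libraries, the replicate number as a block, limma 3.58.1 on log2(TPM + 1) and log2(TPM + 0.1), and leaving out each library. The length offset was added after the data had been seen.

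Every library pair within a group differed by more than sampling noise (chi-square per degree of freedom 2.69 to 31.1). All 10 members are reported; of other lists, up to 2 passed genes with the largest change per comparison are named, and otherwise the 1 with the smallest p. The members and lists were chosen with earlier results of these data known. Identifiers and symbols matched GENCODE M21 in 100% of cases; promoters are from RefSeq.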

Additional observations from a re-analysis of the deposited data

How the results depend on the processing

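For EPZ5676 against control, 0 members were called under every setting tried, those that left out a library included. Over all genes, 0 were called with edgeR, 83 with DESeq2, 76 without a filter and 26 without EPZ5676 2. Against E11.5 lung, 3 members were called in controls and 4 with EPZ5676 with edgeR under RLE scaling, without a filter, in the fit to 6 libraries and with the replicate block, and with DESeq2. By limma on log2(TPM + 1) and on log2(TPM + 0.1) the count was 1 in each comparison, Mllt3. With a library left out, the count was 2 to 4 in controls and 1 to 5 with EPZ5676. With the length offset it was 2 in controls and 3 with EPZ5676. Whether the replicate number pairs the libraries is not stated in the labels. Deviations of EPZ5676 1 and Control 1 had a correlation of 0.46. The other pairs of libraries with the same number lay between -0.10 and 0.079. The block changed no call of a member.

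Several values near 0 turned their sign. For EPZ5676 against control, Ell (-0.02) was 0.072 and 0.079 by limma on log2(TPM + 1) and log2(TPM + 0.1) and 0.028 with the length offset, and with a library left out between -0.15 and 0.057. Mllt3 (0.09) was -0.040 with the length offset. With a library left out, Ell2 was between -0.22 and 0.079, Mllt6 between -0.057 and 0.14 and Mllt10 between -0.011 and 0.047. For control against E11.5, Mllt1 was between -0.10 and 0.019 and Aff3 between -0.18 and 0.070. For EPZ5676 against E11.5, Dot1l was between -0.12 and 0.036 and Ell2 between -0.092 and 0.20. Aff1, Ell and Ell2 rest on 95 to 299 counts per library. Taken over genes together, the scatter between libraries of a group exceeded sampling noise in every pair. It was not measured for these genes alone. How much of each interval comes from depth was not tested.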
